A study of Zea mays with 8 samples.

Results

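The 8 genes described here encode the enzymes that build, branch and trim starch chains in the maize kernel. They are wx1, ss1, su2 and du1 (chain building), ae1 and sbe1 (branching), su1 (trimming) and pho1 (phosphorolysis). They were chosen by gene ID for these roles, with earlier results of these data known. They are 8 of the 37965 genes of the deposited count table. Transcripts were measured by RNA-seq in maize (Zea mays, inbred line A188) at 19 days after pollination, in endosperm tissue enriched for the EAS. EAS stands for the endosperm zone that lies against the scutellum of the embryo. The KIL1 KIL2 knockout gave 4 libraries and wild type (WT) gave 4 libraries, and the comparison asks what the loss of both genes does to this tissue. Both genes encode transcription factors of the NAC family. Neither the knockout alleles nor the number of independent lines is in the labels. Nor do they say if a library stands for its own plant or ear, or for a pool of kernels. The p-values therefore describe the spread among these libraries, part of which may be technical.

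Starch fills the maize endosperm as granules of amylose, an almost unbranched glucan, and amylopectin, a branched one. Both are built inside the amyloplast by synthases that add glucose from ADP-glucose to the end of a chain. Branching enzymes cut chains and join them to others as side chains, and debranching enzymes remove misplaced branches so that amylopectin can crystallise. Classical kernel mutants such as waxy, sugary, dull and amylose extender carry defects in these genes. The EAS is the endosperm zone into which the growing embryo expands, and its cells are crushed and removed during kernel filling.

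All 8 starch enzyme transcripts were higher in the knockout than in wild type. The median change of the 8 was a log2 fold change of 0.34, or 1.26-fold, whereas the median of all tested genes was -0.003. Of the 8 genes 8 rose and 0 fell (quasi-likelihood test of edgeR, p below 0.05 after Benjamini-Hochberg adjustment over all 22014 tested genes), where 8.51% of all tested genes rose and 10.1% fell. The genes were chosen with earlier results of these data known, so this count describes them and is no test of the set. It was 8 with DESeq2 (10.6% of all tested genes higher) and 4 with library totals in place of TMM (4.69% higher). With the replicate number as a block it was 5 (6.06% higher). Without wild type replicate 3 it was also 5, where 1415 of 22222 tested genes rose. The 8 genes have many counts, so they are also set against genes with as many or more, ranked by CPM without division by length. Among the 533 tested genes with at least the mean CPM of su2, the lowest of the 8 on this scale, 26.1% rose and 6.75% fell, with a median log2 fold change of 0.08. The rises came in 2 ranges of size: wx1, ss1 and su2 rose 1.48-fold to 1.58-fold, and pho1, du1, ae1, su1 and sbe1 rose 1.16-fold to 1.3-fold. For 7 of the 8 genes each knockout library was above each wild type library, which held for 10.8% of all tested genes and for 31.7% of the 533 genes with high CPM. In a bulk sample, more starch-storing cells and more of these transcripts per cell cannot be told apart.

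Sequencing depth was 47143888 to 65625013 assigned reads in the knockout and 58330218 to 80577963 in wild type. Each of the 8 genes had between 10953 and 158457 counts in every library, so counting error was smaller than the spread between libraries. All 8 passed the filter on low counts in both genotypes. Levels are given as CPM, read counts scaled to library size. In a principal component analysis of log2 CPM over all tested genes the genotypes separated on the first component (41.1% of the variance). Knockout replicate 1 stood apart on the second (16.7%). The table does not pair its IDs with gene names, so the tissue was not checked against marker genes of the EAS or of its neighbours, nor the genotype against KIL1 and KIL2 transcripts.

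The genes lie at 8 places in the A188 annotation, and no exon of any of them overlaps an exon of another gene. The positions below are those of the deposited annotation of A188. The genes wx1 (chromosome 9, 25019040 to 25023031, minus strand) and ss1 (chromosome 9, 19039427 to 19050240, plus strand) are 5.97 Mb apart. The genes ae1 (chromosome 5, 174459067 to 174475820, minus strand) and sbe1 (chromosome 5, 67025957 to 67037336, minus strand) are 107.4 Mb apart. The others are each alone among the 8 on their chromosome: su2 on chromosome 6 (122785334 to 122789482, plus strand), du1 on chromosome 10 (61186806 to 61198156, plus strand), su1 on chromosome 4 (45827029 to 45835626, plus strand) and pho1 on chromosome 1 (284508801 to 284517889, minus strand). Of the 16 tested genes that flank the 8 directly, 2 rose and 1 fell in the knockout, and 13 did not pass the threshold. Over all tested genes 18.6% changed in either direction.

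The gene wx1 (Zm00001d045462) encodes granule-bound starch synthase I, the enzyme that makes amylose. Its level was 2288, 2400.4, 2581 and 2476 CPM in knockout replicates 1 to 4 and 1520.0, 1392, 1520.4 and 1750.0 CPM in wild type replicates 1 to 4, scaled by library size and TMM factors. The lowest knockout library lay well above the highest wild type library. Mean levels were 2436 ± 124 CPM in the knockout, against 1546 ± 149 CPM in wild type (SD, n = 4 each), 1.58-fold higher in the knockout (log2 fold change 0.66 ± 0.07 SE, adjusted p = 0.000225 by edgeR). This was the largest rise of the 8, above that of 95.6% of all tested genes and of 96.2% of the 533 genes with high CPM.

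**Figure D1:**
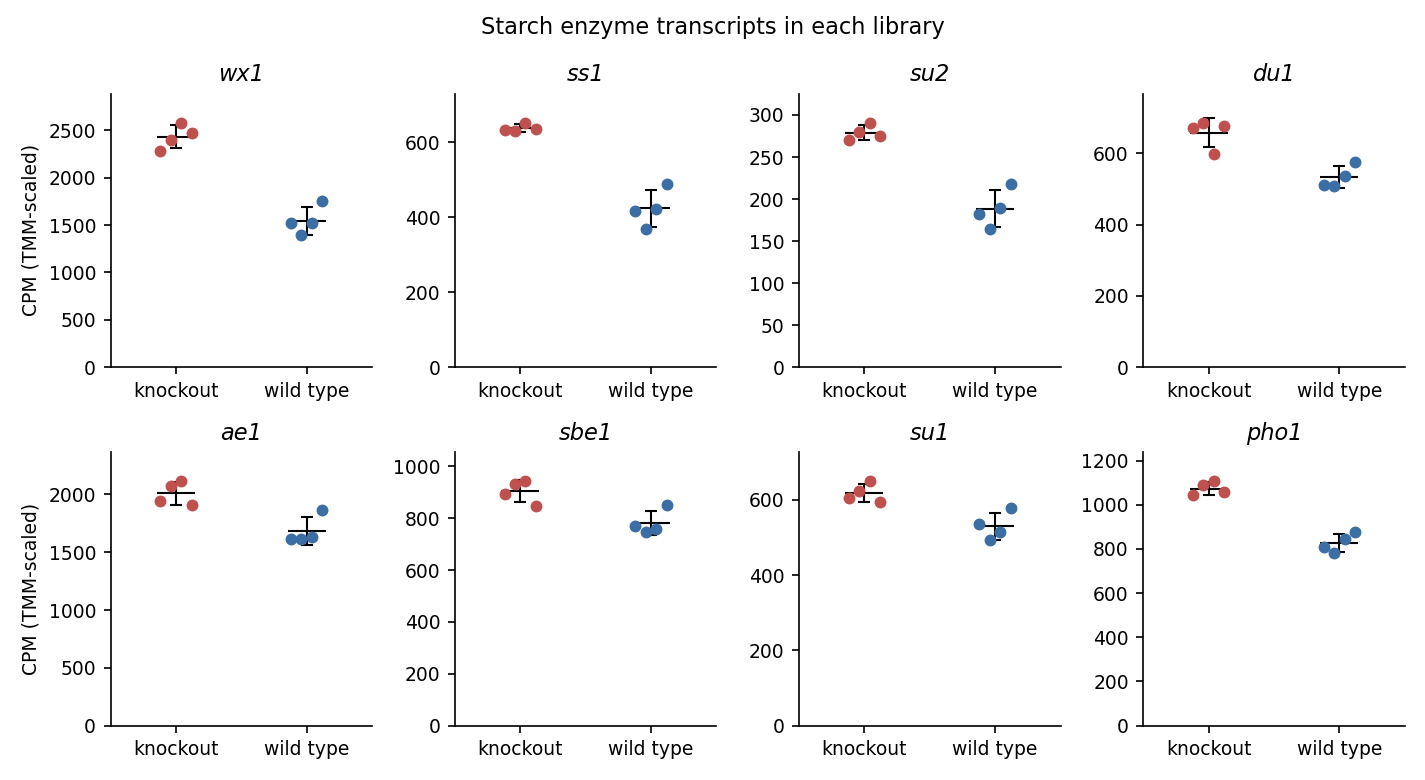
Level of each starch enzyme transcript in CPM (vertical axes, starting at 0) in the 4 knockout libraries (red, left) and the 4 wild type libraries (blue, right). Points are libraries, in replicate order from left to right within a group, and bars give the mean and SD. The groups are apart for all genes except sbe1, where knockout replicate 4 (848 CPM) and wild type replicate 4 (849 CPM) meet.

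The soluble synthases extend the chains of amylopectin, and they differ in the chain lengths they favour. The gene ss1 (Zm00001d045261) encodes starch synthase I, which makes the shortest chains. It measured 634, 630.0, 652 and 636 CPM in the knockout libraries and 417, 368, 421 and 488 CPM in the wild type libraries. The knockout libraries were almost level with one another and all above wild type. Means were 638 ± 9.68 CPM in the knockout, against 424 ± 49.3 CPM in wild type (SD, n = 4 each), 1.51-fold higher in the knockout (log2 fold change 0.59 ± 0.07 SE, adjusted p = 0.000429 by edgeR).

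The gene su2 (Zm00001d037234), known from the sugary2 mutant, encodes starch synthase IIa, which makes chains of intermediate length. Knockout libraries had 270.3, 279.8, 291 and 275 CPM, and wild type libraries 182, 165, 189.6 and 217 CPM. Again no wild type library reached the lowest knockout library. Means were 279 ± 8.69 CPM in the knockout, against 188.5 ± 21.9 CPM in wild type (SD, n = 4 each), 1.48-fold higher in the knockout (log2 fold change 0.57 ± 0.07 SE, adjusted p = 0.000551 by edgeR). Across the 8 libraries su2 and ss1 were the most alike of all pairs among the 8 genes: their log2 CPM, centred on each gene's mean, differed by a root mean square of 0.025. This measure includes the difference between the genotypes, which was similar for both genes.

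The gene du1 (Zm00001d000002), known from the dull1 mutant, encodes starch synthase III, which makes long chains. It measured 672, 685, 598 and 676 CPM in the knockout libraries and 512, 508, 536 and 575 CPM in the wild type libraries. Knockout replicate 3 was the lowest knockout library for du1, and the highest one for each of the other 7 genes. Means were 658 ± 40.3 CPM in the knockout, against 533 ± 30.5 CPM in wild type (SD, n = 4 each), 1.23-fold higher in the knockout (log2 fold change 0.30 ± 0.06 SE, adjusted p = 0.00586 by edgeR), which was smaller in value than the rises of ss1 and su2.

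The branching enzymes create the side chains of amylopectin. The gene ae1 (Zm00001d016684), known from the amylose extender mutant, encodes branching enzyme IIb, the main form of the endosperm. Knockout libraries had 1940.6, 2074, 2114 and 1910.4 CPM, and wild type libraries 1613, 1618, 1633 and 1866 CPM. The groups did not overlap, but wild type replicate 4 came close to the lowest knockout library. Means were 2009.7 ± 99.3 CPM in the knockout, against 1683 ± 123 CPM in wild type (SD, n = 4 each), 1.19-fold higher in the knockout (log2 fold change 0.26 ± 0.06 SE, adjusted p = 0.0175 by edgeR). The call was lost without wild type replicate 1 (adjusted p = 0.0544), without wild type replicate 3 (0.0531), with the replicate block (0.0609) and with library totals (0.0896).

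The gene sbe1 (Zm00001d014844) encodes branching enzyme I, the second form of the endosperm. It measured 894, 933, 942 and 848 CPM in the knockout libraries and 769.5, 747, 758 and 849 CPM in the wild type libraries. The highest wild type library and the lowest knockout library were level. Means were 904 ± 43.1 CPM in the knockout, against 781 ± 46.5 CPM in wild type (SD, n = 4 each), 1.16-fold higher in the knockout (log2 fold change 0.21 ± 0.06 SE, adjusted p = 0.0275 by edgeR), the smallest of the 8. The call was lost when any of 5 libraries was left out: knockout replicate 1 (adjusted p = 0.0554), knockout replicate 2 (0.0686), wild type replicate 1 (0.0715), wild type replicate 2 (0.0724) or wild type replicate 3 (0.0773). It was also lost with the replicate block (adjusted p = 0.0907) and with library totals (0.192).

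The gene su1 (Zm00001d049753), known from the sugary1 mutant of sweet corn, encodes an isoamylase-type debranching enzyme, which trims misplaced branches. Its levels were 605, 624, 649 and 595 CPM in the knockout libraries and 536, 492, 514 and 577 CPM in the wild type libraries. The knockout libraries were all above wild type, by a narrow margin at wild type replicate 4. Means were 619 ± 23.8 CPM in the knockout, against 529.9 ± 36.3 CPM in wild type (SD, n = 4 each), 1.17-fold higher in the knockout (log2 fold change 0.22 ± 0.06 SE, adjusted p = 0.0221 by edgeR). The call was lost without knockout replicate 2 (adjusted p = 0.0506), wild type replicate 2 (0.0583) or wild type replicate 3 (0.0619), with the replicate block (0.0672) and with library totals (0.136).

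The gene pho1 (Zm00001d034074) encodes the plastid starch phosphorylase, which can add glucose to a chain from glucose 1-phosphate or release it again. It measured 1043, 1088, 1106 and 1056 CPM in the knockout libraries and 807, 783, 843 and 878 CPM in the wild type libraries. The spread within each genotype was small beside the distance between them. Means were 1073 ± 28.6 CPM in the knockout, against 828 ± 41.4 CPM in wild type (SD, n = 4 each), 1.3-fold higher in the knockout (log2 fold change 0.37 ± 0.05 SE, adjusted p = 0.000759 by edgeR). Of the 8 genes pho1 lay closest to their mean profile over the 8 libraries, with a root mean square difference of 0.032 on the log2 scale. The profile includes the difference between the genotypes.

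**Figure D2:**
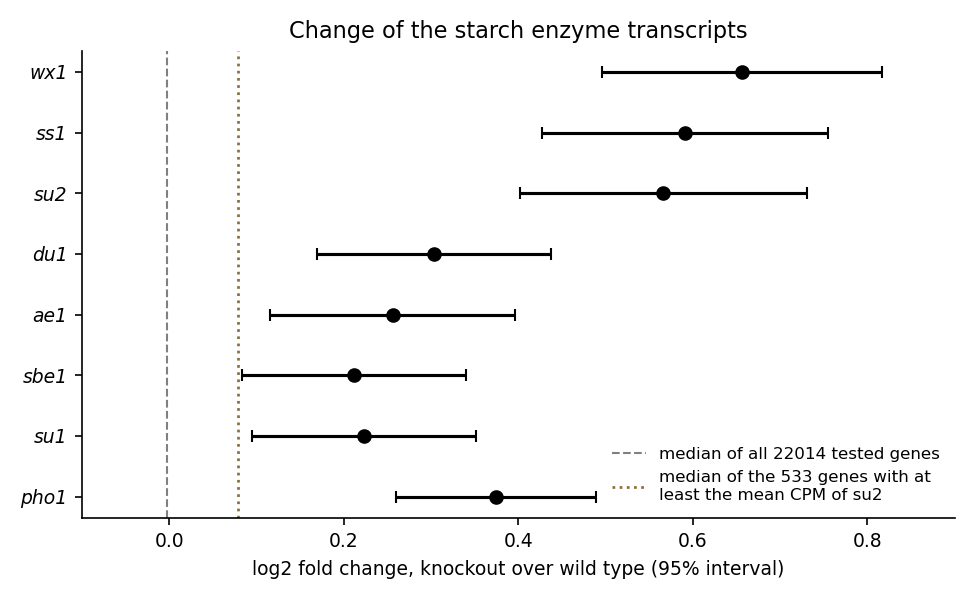
Log2 fold change of each gene, knockout over wild type (horizontal axis), with its 95% interval, from edgeR across all tested genes. The dashed line is the median of all 22014 tested genes (-0.003) and the dotted line that of the 533 genes with at least the mean CPM of su2 (0.08). Every interval lies above both lines, with wx1, ss1 and su2 farthest to the right.

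The 95% intervals of the fold changes describe the spread among these libraries under TMM scaling, and do not cover a change of scaling. They ran between 1.41-fold and 1.76-fold for wx1 and between 1.34-fold and 1.69-fold for ss1. At the other end they ran between 1.06-fold and 1.27-fold for sbe1 and between 1.07-fold and 1.28-fold for su1. A 2-fold change was thus outside the interval for each of the 8 genes.

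The scaling of the libraries bears on rises this small. When libraries were scaled by their totals and not by TMM factors, the median log2 fold change of all tested genes moved from -0.003 to -0.12. The 8 genes then kept their direction, but 4 of them passed the threshold (wx1, ss1, su2 and pho1), where 4.69% of tested genes rose. Adjusted p-values for the others were 0.0523 for du1, 0.0896 for ae1, 0.136 for su1 and 0.192 for sbe1. A change of scaling shifts all genes by nearly the same amount, so the log2 fold changes relative to the median of all genes (0.66 for wx1, 0.31 for du1 and 0.22 for sbe1) hardly depend on it by construction, and do not bear on the lost calls. With the replicate number as a block, 5 of the 8 passed the threshold (wx1, ss1, su2, du1 and pho1), where 6.06% of tested genes rose.

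Together the 8 transcripts took 0.835%, 0.871%, 0.893% and 0.847% of the scaled library in knockout replicates 1 to 4. They took 0.636%, 0.607%, 0.642% and 0.720% in wild type replicates 1 to 4. The groups did not overlap, with means of 0.862% ± 0.026 in the knockout and 0.651% ± 0.0483 in wild type (SD, n = 4 each), a difference of 0.211 percentage points. No test was made of this sum over chosen genes.

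Levels of the 8 genes were compared with one another per exon length, as CPM per kb of exon. By this measure wx1 stood far above the other 7, at 903 ± 45.8 CPM per kb in the knockout and 573 ± 55.2 CPM per kb in wild type (SD, n = 4 each). It was the 55th most abundant of the tested genes per length in the knockout and the 75th in wild type. Next came pho1 at 211 ± 5.62 CPM per kb in the knockout and 163 ± 8.15 in wild type, and ae1 at 189 ± 9.36 in the knockout and 159 ± 11.5 in wild type. The libraries of pho1 and ae1 overlapped in wild type and not in the knockout. The gene su1 followed at 117 ± 4.51 CPM per kb in the knockout and 101 ± 6.89 in wild type, and sbe1 at 105 ± 4.99 in the knockout and 90.4 ± 5.39 in wild type.

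The soluble synthases were the lowest of the 8 per length and lay close together. They measured 95.4 ± 1.45 (ss1), 93.2 ± 2.9 (su2) and 81.8 ± 5.01 CPM per kb (du1) in the knockout, and 63.3 ± 7.37 (ss1), 62.9 ± 7.32 (su2) and 66.3 ± 3.8 CPM per kb (du1) in wild type. In wild type the libraries of each neighbouring pair overlapped, and du1 was above su2 in 3 of 4 libraries. In the knockout ss1 and su2 overlapped, and du1 lay below su2 in 4 of 4 libraries. The order among the 8 depends on the exon lengths, which are sums over merged, overlapping transcript models: ae1 has 629 exon entries that merge into 12 blocks, which cover 63.4% of its span. By the mean over all libraries and without division by length, only wx1 kept its place in the order. The gene su2, with 2994 bases of exon, then came last. In wild type alone ae1 then stood above wx1, at 1683 ± 123 CPM against 1546 ± 149 CPM (SD, n = 4 each).

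**Figure D3:**
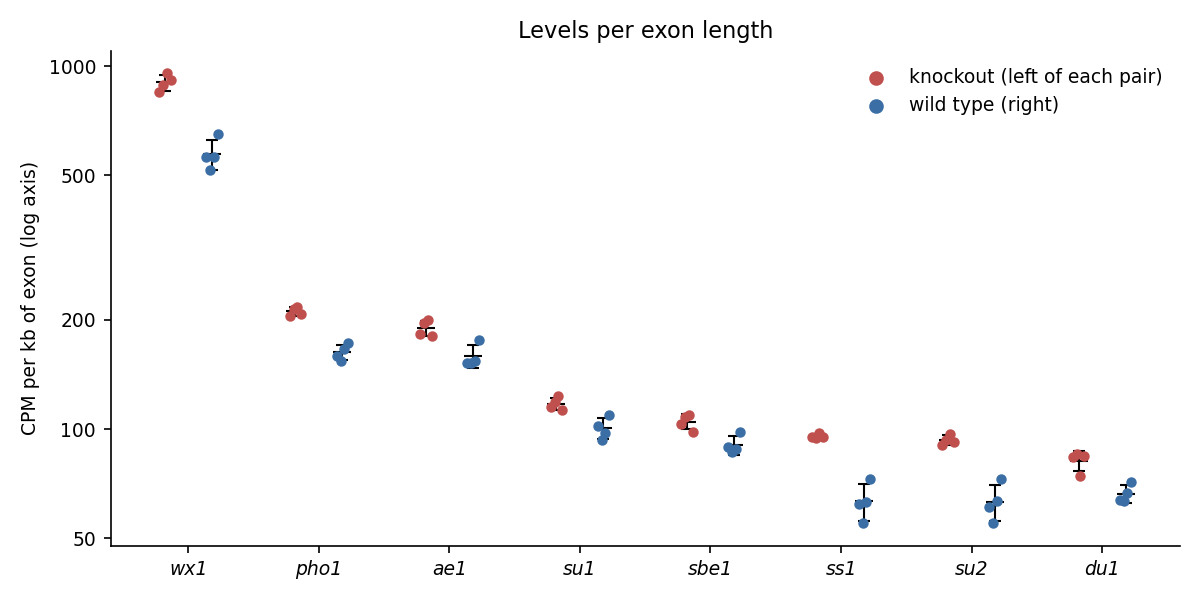
Level per exon length in CPM per kb (vertical axis, logarithmic) of the 8 genes, ordered by their mean over all libraries. The 4 knockout libraries (red) stand left of the 4 wild type libraries (blue), and bars give the mean and SD. The gene wx1 is far above the others, and ss1, su2 and du1 are lowest in both genotypes.

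The make-up of the set was described by each gene's share of it. The gene wx1 made up 50.2% ± 1.08 of the summed level per length of the 8 genes in the knockout and 44.8% ± 0.716 in wild type (SD, n = 4 each). The shares of ae1 were 10.5% ± 0.337 in the knockout and 12.4% ± 0.378 in wild type. The shares of su1 were 6.54% ± 0.149 in the knockout and 7.88% ± 0.201 in wild type. The shares did not overlap between the genotypes for any of the 8 genes, so this marks none of them. As parts of a whole the shares are not independent of one another.

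Ratios within a library do not depend on scaling between libraries. The ratios, too, were chosen with earlier results of these data known. The level of wx1 was 3.34 times the sum of ss1, su2 and du1 in the knockout (libraries 3.15 to 3.56) and 2.97 times in wild type (2.92 to 3.01). The sum of the branching enzymes ae1 and sbe1 was 1.09 times the sum of the soluble synthases in the knockout (1.03 to 1.15) and 1.29 times in wild type (1.25 to 1.38). The ratio of du1 to ss1 was 0.857 in the knockout (0.763 to 0.906) and 1.05 in wild type (0.98 to 1.15). These 3 ratios did not overlap between the genotypes, and the differences of their mean log2 ratios were 0.17, -0.25 and -0.29. Such differences largely restate the fold changes of the genes. How often ratios between other genes separate the genotypes was not counted.

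The other 4 ratios overlapped. The ratio of ae1 to sbe1 was 1.81 in the knockout and 1.75 in wild type. For su1 to the branching enzymes it was 0.399 in the knockout and 0.404 in wild type, for pho1 to the soluble synthases 0.781 in the knockout and 0.847 in wild type, and for su2 to ss1 0.977 in the knockout and 0.994 in wild type. In an exact permutation test, two-sided, added after the values were seen, each of the 3 separated ratios gave p = 0.0286, the smallest that 4 libraries against 4 can give. Adjusted over the 7 ratios compared, this was 0.0667. With only 3 of 7 ratios at the smallest possible p, the adjusted value could not fall below 0.05, so nothing is read from it. The 4 overlapping ratios gave p = 0.0571 to 0.629 (adjusted 0.08 to 0.629) in the same exact test.

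**Figure D4:**
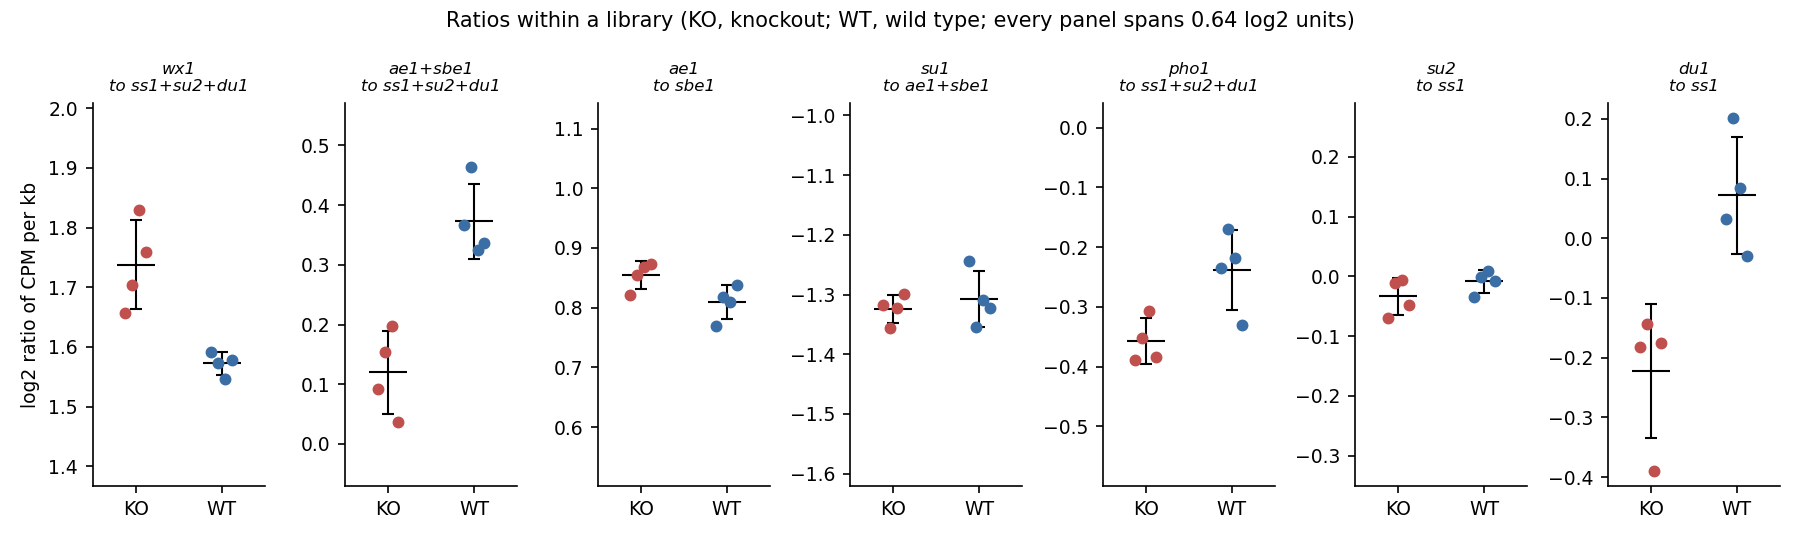
Log2 ratio of CPM per kb (vertical axes, each spanning the same range) between genes or sums of genes, in the 4 knockout libraries (KO, red, left) and the 4 wild type libraries (WT, blue, right), with mean and SD. The ratios of wx1 and of ae1 plus sbe1 to the soluble synthases, and of du1 to ss1, separate the genotypes, and the other 4 do not.

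Within a genotype the 8 genes tended to move together from library to library. In wild type replicate 4 all 8 were above the wild type mean, by 0.09 to 0.21 on the log2 scale. In wild type replicate 2, the most deeply sequenced library, 0 of 8 were above it, with deviations between -0.20 and -0.05. Both were widest for wx1, ss1 and su2, the genes with the largest difference between the genotypes. In knockout replicate 3, 7 of 8 were above the knockout mean, and du1 was 0.13 below it. Coefficients of variation were 1.52% to 6.13% among the knockout libraries and 5.01% to 11.6% among the wild type libraries, and the median of the 533 genes with high CPM was 6.39% in the knockout and 4.97% in wild type. What set these libraries apart was not tested.

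**Figure D5:**
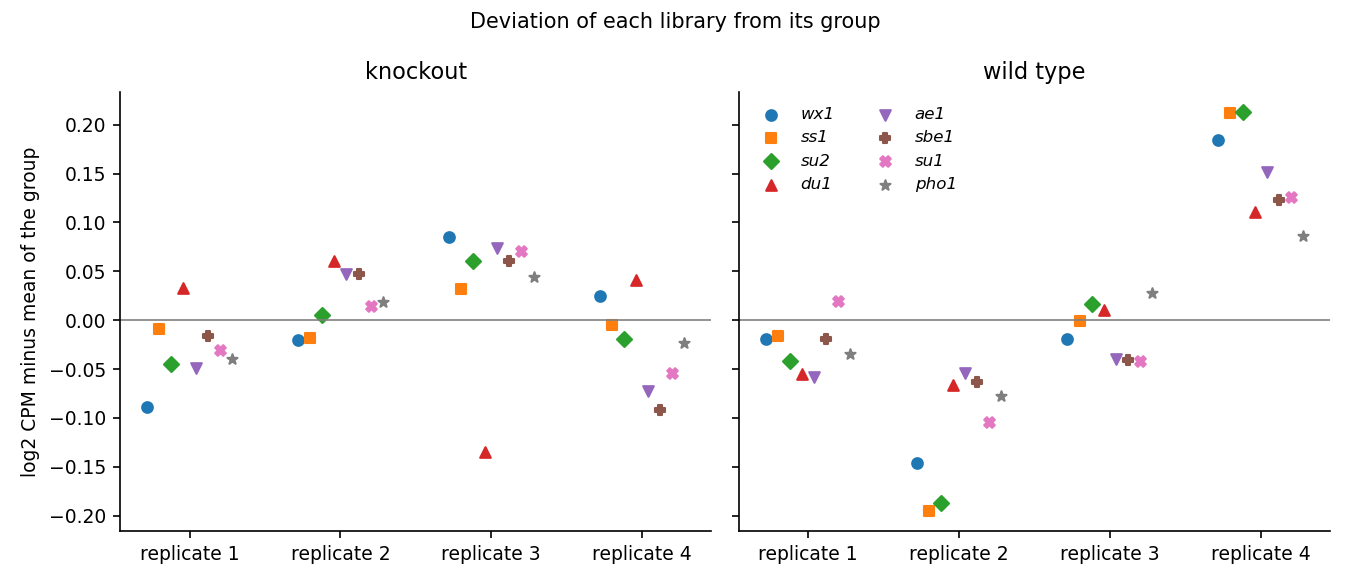
Deviation of each library from the mean of its own genotype in log2 CPM (vertical axis) for the 8 genes (symbols), with knockout libraries on the left and wild type libraries on the right. All 8 genes are above the mean in wild type replicate 4 and below it in wild type replicate 2, and du1 stands apart from the other 7 in knockout replicate 3.

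By their profile over the 8 libraries some of the genes lay in 2 close sets, drawn here after the values were seen. The profiles are centred on the mean over both genotypes, so they contain the fold changes and largely restate them. Log2 fold changes were 0.21 to 0.26 for ae1, sbe1 and su1, and 0.57 to 0.66 for wx1, ss1 and su2. The genes ae1, sbe1 and su1 differed from one another by a root mean square of 0.028 to 0.041 in centred log2 CPM, and wx1, ss1 and su2 by 0.025 to 0.056. The least alike pair was wx1 and sbe1, at 0.233. The genes du1 and pho1 were in neither set. Nearest to du1 was pho1, at 0.083, and nearest to pho1 was ae1, at 0.073. Among 6125 other genes whose log2 CPM averaged 5 or more, the profile nearest to the mean of the 8 was that of Zm00001d053822, with a root mean square difference of 0.034. It measured 50.2 ± 2.02 CPM in the knockout, against 37.9 ± 2.9 CPM in wild type (SD, n = 4 each), 1.33-fold higher in the knockout. Zm00001d032790 came next, at 0.036, with 62.8 ± 1.02 CPM in the knockout, against 48.3 ± 3.15 CPM in wild type (SD, n = 4 each), 1.3-fold higher in the knockout. Both were picked for their likeness, so these differences are a description.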

How the data were processed

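Libraries were made from total RNA that had been treated with DNase and were read from both ends on an Element AVITI sequencer, per the labels' protocols. The tools named in the submitters' processing notes are Trimmomatic 0.39 and HISAT2 (version not given in the sources used here). The deposited values are raw counts of reads for each gene. They were made with featureCounts 2.0.1 on an A188 annotation, per the file headers, and no option was set for strand, pairs, or reads with several alignments. Reads of near-identical copies were therefore left out, and strands were not told apart. Summed exon length per gene is also in the deposited table.

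The 8 genes and the ratios were chosen with earlier results of these data known. The gene names are those that came with the IDs. The reference table (B73) knows 6 of the 8 names, each with a gene on the chromosome number the count table gives. The name ae1 belongs to 2 reference genes there, 1 of them on that chromosome. Of the 37965 IDs 0 matched this reference table. Other starch pathway genes and cell type markers were therefore not analysed here, and no sequences are shown. All 8 genes are named, and outside them the 2 genes most alike in profile among those whose log2 CPM averaged 5 or more.

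Tests used R 4.3.3 and edgeR 4.0.16: filterByExpr, TMM factors, glmQLFit and glmQLFTest on all 8 libraries, without a replicate block, with adjustment over all tested genes. Standard errors were derived from the F statistic, and intervals are at 95%. Alternatives used DESeq2 1.42.0, limma-voom (limma 3.58.1), other scalings and filters, and each library left out. The procedure was tested on simulated data. Deviations from the genotype means correlated at 0.1, 0.1, -0.05 and -0.13 between libraries that share replicate number 1, 2, 3 or 4, so the numbers were not taken as pairs.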

Additional observations from a re-analysis of the deposited data

Results flagged for a closer look

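Among 34 sets of 4 values examined for a library far from the other 3 of its genotype, 4 had one. Chance alone gives about 1 in 20, but the sets share genes and libraries, so no excess is read from this. The du1 value of knockout replicate 3 enters both its own set and that of the ratio of du1 to ss1. For du1, knockout replicate 3 had 598 CPM, and the rest of the knockout 672 to 685 CPM; without it the log2 fold change of du1 was 0.35 in place of 0.30. The same library had a log2 ratio of du1 to ss1 of -0.39, and the rest of the knockout -0.18 to -0.14. For ae1, wild type replicate 4 had 1866 CPM, and the rest of wild type 1613 to 1633 CPM; without it the log2 fold change of ae1 was 0.31 in place of 0.26. The deepest library was wild type replicate 2 with 80577963 counts, set against 58330218 to 61613873 for the rest of wild type.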

How the results depend on the processing

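Across 16 alternatives (other scalings, filters, tools, a replicate block, each library left out) the 8 genes kept a higher level in the knockout. The calls of wx1, ss1, su2 and pho1 held in each. The number of genes past the threshold was 8, but 4 with library totals (4.69% of all tested genes rose) and 5 with the replicate block. With a library left out it was 5 to 8 (5 without wild type replicate 3, where 1415 of 22222 tested genes rose). With library totals the calls were lost for du1 (log2 fold change 0.19), ae1 (0.14), sbe1 (0.10) and su1 (0.11), and the difference in summed share was 0.15 percentage points. With the replicate block the log2 fold changes hardly moved, and the calls were lost for ae1 (0.26, adjusted p = 0.0609), sbe1 (0.21, adjusted p = 0.0907) and su1 (0.22, adjusted p = 0.0672), where 6.06% of all tested genes rose. The labels do not say that the numbers pair the libraries. Leaving out each library gave log2 fold changes of 0.23 to 0.31 for ae1, 0.19 to 0.26 for sbe1 and 0.19 to 0.27 for su1. The count over all tested genes was 4086, and 2783 to 4012 with a library left out. Without division by exon length 1 of the 8 genes (wx1) kept its place in the order of mean levels over all libraries. In wild type alone ae1 was then above wx1. DESeq2 called all 8, with 10.6% of tested genes higher. The test of the ratios and the log2 fold changes relative to the median of all genes were added after the values were seen.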
